A study of Mus musculus with 10 samples.

Results

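Krüppel-like factors are transcription factors that bind GC-rich and CACCC sequences through C2H2 zinc fingers at their carboxyl end. Their other domains differ: KLF2, KLF4, KLF6 and KLF7 are mainly known as activators, KLF3 and KLF12 bind the corepressor CtBP, and KLF9, KLF10, KLF11 and KLF13 bind the corepressor SIN3A. In lymphocytes the family is known for control of quiescence, migration and cytokine response. The 10 family genes described here (Klf2, Klf3, Klf4, Klf6, Klf7, Klf9, Klf10, Klf11, Klf12 and Klf13) were taken by symbol from a table of 54838 genes, which lists 17 genes named Klf with a number.

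They were measured in group 2 innate lymphoid cells (ILC2), tissue lymphocytes that secrete type 2 cytokines, sorted from the lungs of C57BL/6 mice after inflammation induced with papain, a protease allergen. The sort took lineage-negative, CD90.2-positive cells with or without ST2 and KLRG1. Total RNA was sequenced from 5 libraries of wild-type mice (WT) and 5 of mice lacking the transcription factor c-Maf (KO), which were cohoused littermates. The sources used here do not give the part of Maf removed, its driver or the ages, nor is it said in words that each library is 1 mouse, so p-values measure only the spread between libraries. Libraries are numbered in deposit order and the numbers pair nothing. A separate number in each library's title was lower for every WT library than for every KO library. Any difference that it marks cannot be told apart from genotype.

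The 2 groups differed in depth and in how many genes they held, which touches every result below. WT libraries held 21400938 to 24489987 counts and KO libraries 3620002 to 9867580. Of the 7490 genes tested, 0.694 to 3.51% had at most 3 counts in a WT library, here called missing, against 54.6 to 82% in a KO library. Maf itself had 1412 to 3832 counts in the WT libraries, 108 in KO library 4 and 0 in the other 4. All 14 ILC2 markers had over 3 counts in every WT library and 10 of them in every KO library. Red cell markers summed to 219 to 584 counts in WT and to 435 to 905585 in KO, the highest in KO library 1. The factors that scale libraries by the trimmed mean of M values (TMM) ran from 1.46 to 1.91 for WT libraries and from 0.18 to 0.928 for KO libraries, so counts are given first and scaled levels, in counts per 1000000 (CPM), after them. In bulk RNA of this kind, fewer cells of a type and less RNA per cell cannot be told apart.

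The quasi-likelihood test of edgeR could be applied to 9 of the 10 Klf genes. Klf10 fell in KO, 0 rose, and the other 8 tested did not pass (Benjamini-Hochberg adjusted p of 0.05 over all 7490 genes). Unadjusted p was under 0.05 for 2 of the 9, Klf10 and Klf3. Among all tested genes 27.1% were lower and 1.5% higher in KO. Fitted log2 fold changes, KO minus WT, were positive for 6 of the 9 and negative for 3, with a median of 1.55, beside a median of −0.47 over all tested genes. With limma voom, Klf2, Klf4, Klf9 and Klf13, positive here, were all negative.

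Most Klf genes were present throughout WT and in some KO libraries only. Over 3 counts were found in 48 of 50 pairs of a Klf gene and a WT library, and in 23 of 50 pairs in KO. Each WT library held at least 9 of the 10 genes. KO library 1 held 2 of them (Klf3 and Klf6), KO library 2 held 5, KO libraries 3 and 4 held the same 6 (Klf3, Klf4, Klf6, Klf7, Klf9 and Klf13), and KO library 5 held 4 (Klf6, Klf7, Klf9 and Klf12). Klf6 alone was present in all 10 libraries. With every library thinned to 3620002 counts, each WT library still held at least 9 of the 10 genes, and the KO libraries 2, 5, 6, 6 and 4. Thinning equalised total counts and not their make-up: in KO library 1 the red cell markers took 905585 of 4757345 counts, and the part of this in the missing Klf genes was not tested. Over the 9 tested Klf genes, 22 of 45 pairs with a KO library (48.9%) were missing, beside 64% for all tested genes. The 2 shares were not matched for WT level, on which missing genes depend. In KO library 2, 80% of tested genes at 5 to 20 CPM in WT were missing, and 6.07% of those at 200 to 500 CPM.

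**Figure D1:**
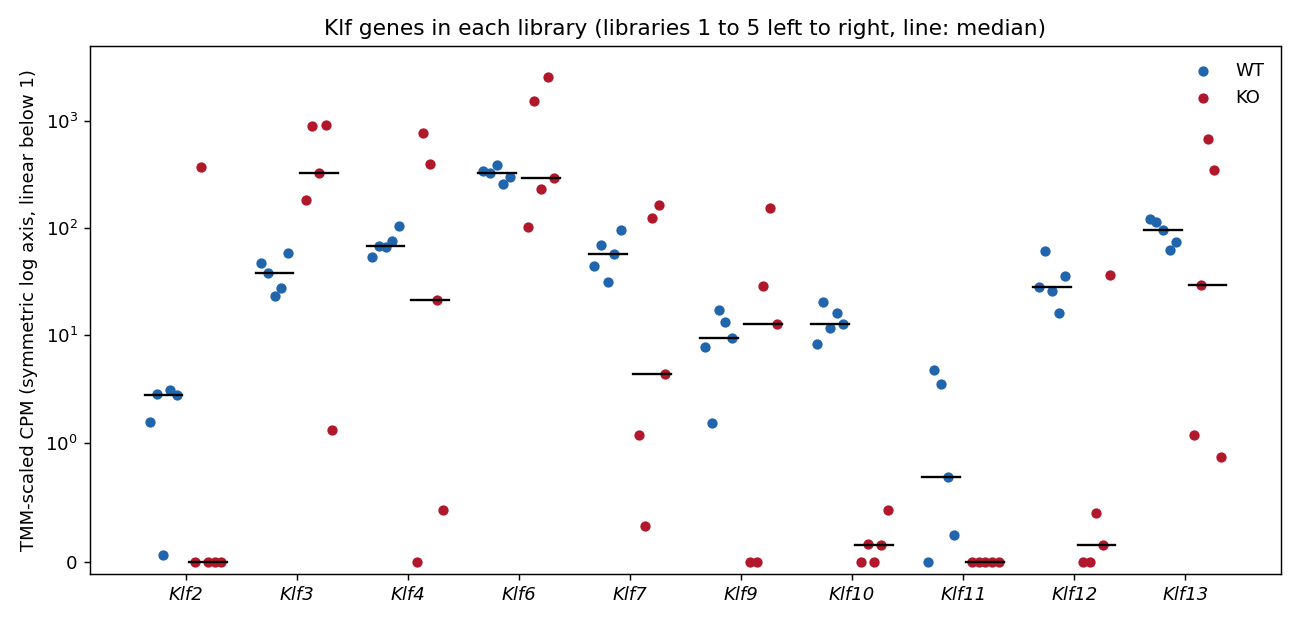
TMM-scaled CPM (counts per 1000000) of each of the 10 Klf genes in the 5 WT and 5 KO libraries, on a symmetric log axis that is linear below 1, with the group median as a line. WT libraries cluster for most genes while KO libraries spread from 0 to well above WT, and only Klf10 has all KO libraries below all WT libraries.

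Within WT cells the family had a clear order when levels were taken per kilobase of annotated exon. Klf6 stood first at 73.7 ± 11.1 TMM-scaled CPM per kb (SD, n = 5), followed by Klf4 at 24.1 ± 6.28 and Klf13 at 12.5 ± 3.41. The ranges of Klf6 and Klf4 did not overlap, nor did those of Klf4 and Klf13. Below these came Klf7 (7.34 ± 3.03), Klf12 (4.78 ± 2.41), Klf3 (3.47 ± 1.27), Klf10 (3.31 ± 1.08), Klf9 (2.04 ± 1.23), Klf2 (1.11 ± 0.686) and Klf11 (0.423 ± 0.495 CPM per kb). From Klf13 down, each gene's WT range overlapped that of the next. With the longest transcript as length, Klf3 (7.47 CPM per kb) and Klf12 changed places and no other rank moved. Klf6 was also the steadiest, its TMM-scaled CPM differing 1.5-fold between the lowest and highest WT library with a coefficient of variation of 15%. Klf11 varied most, at 117%, and Klf2 next, at 61.5%.

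**Figure D2:**
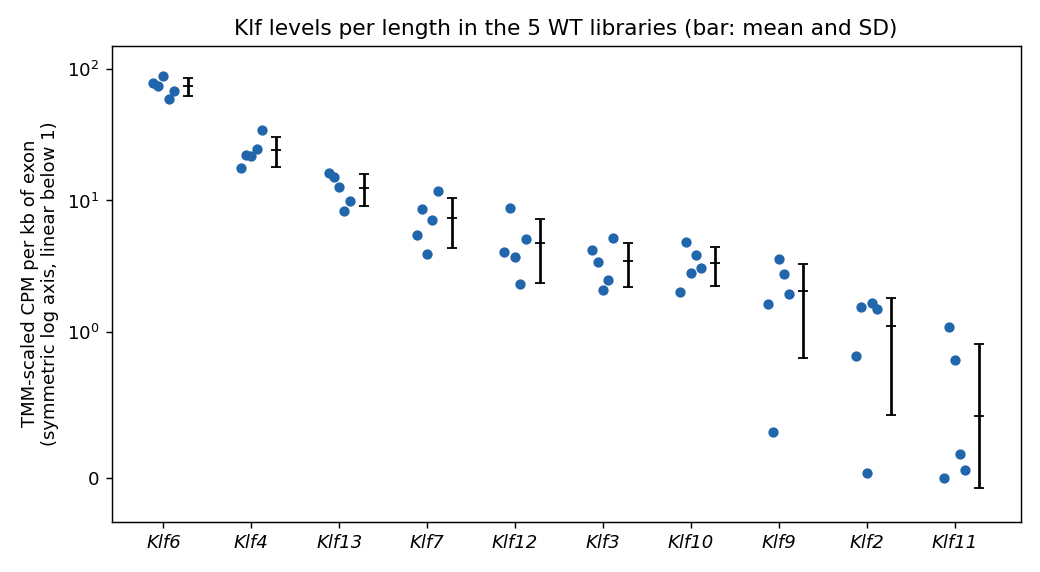
TMM-scaled CPM per kb of exon in the 5 WT libraries for each Klf gene, ordered by mean, with mean and SD beside the points on a symmetric log axis that is linear below 1. Klf6 and Klf4 stand apart from the genes below them, while the ranges of neighbours overlap from Klf13 down.

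The stretches just before the annotated starts of 4 members are shown because these genes differ in how they were kept in the KO libraries: Klf6 in all 5, Klf4 and Klf13 in 3, Klf12 in 1. They are RefSeq sequences of build GRCm38.p6, 5′ to 3′ on the gene's strand, cut to at most 160 bases outside annotated exons. Capitals mark the letters CACCC and GGGCGG (the GC box) on either strand, which KLF and SP proteins are known to bind; the 2 can overlap.
Klf6 (chr13:5861322-5861481, plus strand): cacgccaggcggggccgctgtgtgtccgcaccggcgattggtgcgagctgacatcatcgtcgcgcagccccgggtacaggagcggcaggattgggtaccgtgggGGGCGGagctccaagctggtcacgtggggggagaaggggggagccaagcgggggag
Klf4 (chr4:55532476-55532635, minus strand): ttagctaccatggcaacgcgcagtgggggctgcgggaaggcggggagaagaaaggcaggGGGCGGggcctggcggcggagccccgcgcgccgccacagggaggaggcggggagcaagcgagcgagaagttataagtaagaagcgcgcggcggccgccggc
Klf13 (chr7:63938916-63939075, minus strand): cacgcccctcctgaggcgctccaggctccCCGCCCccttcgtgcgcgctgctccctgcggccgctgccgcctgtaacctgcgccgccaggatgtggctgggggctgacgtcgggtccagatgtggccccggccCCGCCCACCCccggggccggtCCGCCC
Klf12 (chr14:100149797-100149956, minus strand): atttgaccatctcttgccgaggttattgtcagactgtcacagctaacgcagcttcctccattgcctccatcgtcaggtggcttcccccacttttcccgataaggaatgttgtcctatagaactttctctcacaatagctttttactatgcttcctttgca
The stretch of Klf12 holds neither motif, although the 250 bases before its start hold 1 CACCC farther out. Its RefSeq start lies inside the longer GENCODE gene. In the 250 bases before the start, GGGCGG was found in 7 of the 9 members with a RefSeq entry, beside 32.7% of all 32851 such windows, and CACCC in 6 of 9, beside 52%. Klf11, missing from all 5 KO libraries, had 4 GC boxes there, and Klf9, missing from 2, had 0. A link between these letters and presence in KO was not tested, and the 4 genes shown also differ in WT level. The letters TGCTGA, the core that MAF proteins are known to bind, were found on either strand in 0 of the 9 windows and in 16.1% of all windows, which says only that these letters are not in these windows. The GC content was 48% for Klf12 and 59.2 to 78.4% for the other 8, with a median of 52.4% over all windows. Klf10 has no entry.

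Klf10 encodes the TGF-beta-inducible repressor first named TIEG1 (ENSMUSG00000037465, GRCm38 chromosome 15, 38291463 to 38300706, minus strand, protein coding). Its counts, given here and below in the order of libraries 1 to 5, were 293, 908, 393, 723 and 561 for WT and 0, 1, 0, 1 and 1 for KO. Every KO library was below every WT library, as for 28.9% of all tested genes (0.774% had every KO library above). The level was 13.9 ± 4.51 TMM-scaled CPM in WT and 0.146 ± 0.179 in KO (SD, n = 5 each). The WT to KO ratio of counts per scaled library size was 114, with an exact 95% interval of 39.1 to 555 that covers counting error only. The log2 fold change was −6.55 (SE 1.39, edgeR adjusted p = 0.00171), and Klf10 passed in all 19 alternatives, with adjusted p from 4.09e-05 to 0.0148. Such losses were common at this level: of 2987 tested genes at 5 to 20 CPM in WT, 34.5% were missing from all 5 KO libraries and 41.3% were lower.

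Among the other SIN3A-binding repressors, Klf11, the related TGF-beta-inducible gene, was too weak to be tested. Its counts were 0, 212, 117, 32 and 10 in WT and 0 in all 5 KO libraries, at least 14.8-fold lower in KO if 3 counts are allowed for the KO libraries together. One WT library was at 0 too, so the groups overlapped. Without the filter on low counts Klf11 passed as lower (edgeR adjusted p = 0.0373), and with DESeq2 it did not (adjusted p = 0.0961). Klf9, which responds to glucocorticoid and thyroid hormone, had 274, 68, 573, 599 and 413 counts in WT and 0, 0, 210, 1085 and 29 in KO. KO library 4 was highest and KO libraries 1 and 2 had none, so that KO lay on both sides of WT. The scaled levels were 9.85 ± 5.9 and 39.2 ± 65.6 CPM, with a log2 fold change of 2.00 (SE 1.79, edgeR adjusted p = 0.472), which was 0.23 without KO library 4.

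Klf13, first described as a late activator of the chemokine gene Ccl5 in T cells, had 4283, 5126, 3174, 2826 and 3254 counts in WT and 1, 197, 4945, 2457 and 2 in KO. KO libraries 3 and 4 stood above every WT library after scaling and the other 3 below, 2 of them with at most 2 counts. This gave 93.8 ± 25.7 and 212 ± 299 CPM and a log2 fold change of 1.18 (SE 1.57, edgeR adjusted p = 0.644). Without KO library 3 the fitted change was 0.0015. Of 837 tested genes at 50 to 100 CPM in WT, the range that holds Klf13, Klf4 and Klf7, 63.4% were missing from at least 2 KO libraries, as these 3 were.

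Klf3, a repressor known from B cell and red cell development (ENSMUSG00000029178, chromosome 5, 64803388 to 64832901, plus strand), was the member with the most KO libraries above WT. Its counts were 1636, 1720, 775, 1259 and 2578 in WT and 156, 5988, 2360, 6464 and 3 in KO, although KO libraries held fewer counts in all. After TMM scaling 4 of 5 KO libraries were above every WT library and KO library 5 was below; per library size alone, 3 were above and 2 below. The scaled levels were 39 ± 14.3 CPM in WT and 466 ± 421 in KO. The log2 fold change of 3.58 (SE 1.47) missed the threshold (edgeR adjusted p = 0.0828). Klf3 passed as higher without KO library 1 (log2 fold change 3.76, adjusted p = 0.0371), without KO library 5 (3.96, 0.0153), without both (4.16, 0.00851) and with DESeq2 (4.14, 0.00224). With library size alone the change was 2.30 (adjusted p = 0.29). Of its exon bases 3.59% are shared with Gm20033 on the other strand, which had 4 counts in all libraries together.

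Klf12, the other CtBP-binding member and a repressor of the AP-2alpha gene, showed the reverse distribution. It had 980, 2723, 862, 736 and 1570 counts in WT and 0, 0, 3, 1 and 83 in KO. After scaling, KO library 5 reached 36.4 CPM, within the WT range of 16.3 to 60.9, and the other 4 were at most at 0.411 CPM. The means were 33.4 ± 16.9 and 7.38 ± 16.2 CPM, with a log2 fold change of −2.18 (SE 1.81, edgeR adjusted p = 0.434). The value rested on KO library 5, for when that library was left out Klf12 passed at a log2 fold change of −7.57 (adjusted p = 0.00517), as it did with limma voom (−5.40, 0.0323) and without KO libraries 1 and 5 (−7.51, 0.0101). Per library size alone, every KO library was below every WT library. Of 1692 tested genes at 20 to 50 CPM in WT, 41.7% were missing from at least 4 KO libraries, as Klf12 was, and 88.6% from at least 2, while Klf3 was missing from 1.

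**Figure D3:**
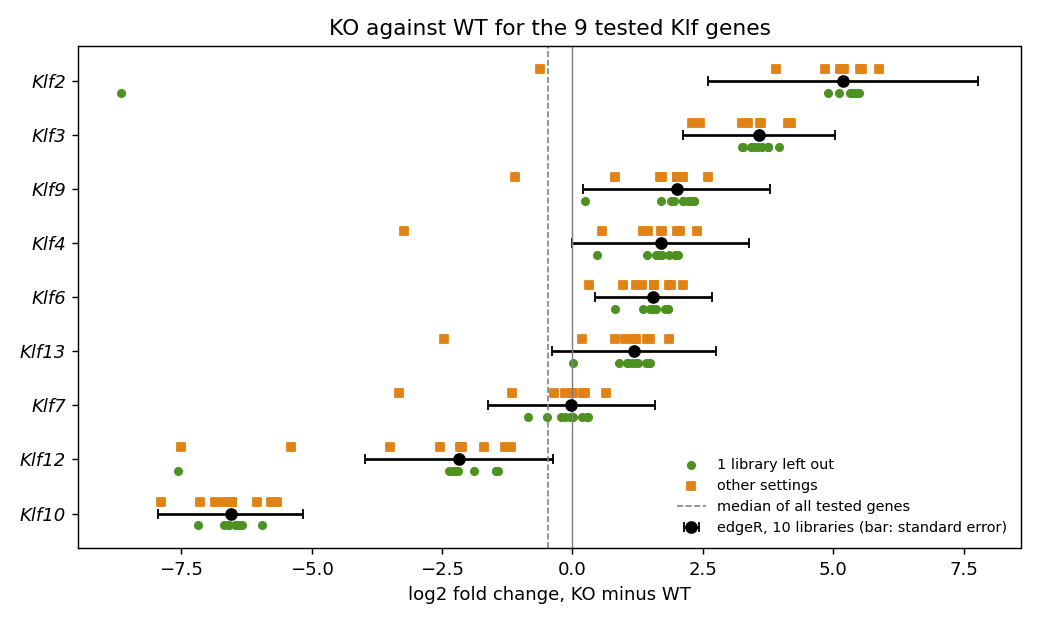
Log2 fold change (KO minus WT) of the 9 tested Klf genes from edgeR with its standard error, with the values after leaving out 1 library and under other settings as separate points. Klf10 stays between −7.89 and −5.67 in every setting, Klf3 between 2.30 and 4.19, and Klf2 and Klf12 move far when a single KO library is left out.

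Klf6, an early gene of injury and activation (ENSMUSG00000000078, chromosome 13, 5861482 to 5870394, plus strand), was the most abundant member. It had 12030, 14565, 12970, 11738 and 13174 counts in WT and 88, 10133, 1689, 18150 and 671 in KO. KO libraries 2 and 4 were above every WT library after scaling and KO libraries 1 and 3 below, with KO library 5 inside the WT range. The means were 324 ± 48.6 and 947 ± 1081 CPM, with a log2 fold change of 1.55 (SE 1.12, edgeR adjusted p = 0.36). Without KO libraries 1 and 5 Klf6 passed as higher (2.12, adjusted p = 0.0429), and with library size alone it stood at 0.32 (adjusted p = 0.884). At 200 to 500 CPM in WT, 66.4% of 214 tested genes were present in every KO library, as Klf6 was.

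Klf4, a factor of monocyte differentiation and of lymphocyte quiescence, had 1874, 3025, 2209, 3392 and 4609 counts in WT and 0, 5160, 2870, 149 and 1 in KO. KO libraries 2 and 3 were above every WT library after scaling and the other 3 below. The means were 73.5 ± 19.1 and 238 ± 343 CPM, with a log2 fold change of 1.69 (SE 1.70, edgeR adjusted p = 0.524). The 10 macrophage and monocyte markers, cells in which Klf4 is also known to act, summed to 1.52 to 289 CPM in WT and to 0 to 35.3 CPM in KO. In KO library 2, where Klf4 had its highest level of 774 CPM, all 10 of these markers were at 0. In KO library 3 they summed to 2 counts. Of the 10 markers 3 were at 0 in every library. Lyz2, the only 1 of them tested, ran from 0.705 to 247 CPM in WT with a mean of 68.6. Of tested genes at 50 to 100 CPM in WT, the range that holds this mean, 36.9% were missing from KO library 2. At 5 to 20 CPM the share was 80%. The part of macrophage and monocyte RNA in the Klf4 value was not tested.

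Klf7, an activator known from neurons and from lymphoid and fat cells, had 1538, 3114, 1058, 2598 and 4205 counts in WT and 1, 2, 914, 1143 and 10 in KO. It was above every WT library in KO libraries 3 and 4 after scaling and below in the other 3, but in none was it above per library size alone. The means were 59.7 ± 24.6 and 58.8 ± 79 CPM, and the log2 fold change of −0.02 (SE 1.60, edgeR adjusted p = 0.995) took both signs over the alternatives. Of its exon bases 39.3% are shared with Gm26649, a noncoding gene on the other strand that was listed at 0 in every library; the strand setting of the counting is not given in the sources used here, so the level of Klf7 is uncertain.

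Klf2, the quiescence factor that drives S1pr1 in naive T cells (ENSMUSG00000055148, chromosome 8, 72319033 to 72321656, plus strand), was almost silent outside 1 library. Its counts were 54, 128, 2, 139 and 121 in WT and 0, 2500, 0, 0 and 0 in KO. KO library 2 reached 375 TMM-scaled CPM, while the highest WT library was at 3.08 CPM. The means were 2.06 ± 1.27 and 75 ± 168 CPM, with a log2 fold change of 5.18 (SE 2.59, edgeR adjusted p = 0.164). Without KO library 2 the fitted change was −8.65 and Klf2 passed as lower (adjusted p = 0.0201), although the remaining KO libraries were all at 0 and the size of that fit is no bound. Of 1151 tested genes at 1 to 5 CPM in WT, 73.5% were missing from at least 4 KO libraries, as Klf2 was.

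The 10 endothelial markers, of a cell type in which Klf2 is known to be high, summed to 8.4 CPM in KO library 2, the lowest of all 10 libraries (29.8 to 94.5 CPM in WT, 8.4 to 91.6 CPM in KO), and 8 of the 10 were at 0 there. Most of that sum in WT came from Pecam1, which was at 0 in KO library 2. The other 2 markers there went the other way: Tie1 had 45 counts and was at 0 in the other 9 libraries, and Emcn had 11 counts against at most 3 elsewhere. The part of endothelial RNA in the Klf2 value was not tested. Cdh5, Cldn5 and Egfl7 were at 0 in every library. S1pr1, the egress receptor that KLF2 is known to drive, had 1136, 3530, 39, 473 and 778 counts in WT and 2, 0, 0, 272 and 0 in KO. It was at 0 in KO library 2, where Klf2 was high, but it was missing from 4 KO libraries. Of tested genes at 20 to 50 CPM in WT, the range that holds S1pr1, 61% were missing from KO library 2. Foxo1, a known activator of Klf2, had 18403 counts in KO library 2, against 1409 to 4484 in WT and 0 to 2777 in the other KO libraries (log2 fold change 3.31, edgeR adjusted p = 0.178). Other genes known to act upstream of KLF genes differed there, but not there alone. Mapk7 was at 0 in all 5 KO libraries. In KO libraries 1 to 5, Map3k3 had 0, 0, 1, 1025 and 0 counts and Map2k5 had 0, 3, 954, 1188 and 1. Smad3 had 0, 31914, 1176, 49 and 7324 counts, with KO libraries 2 and 5 above every WT library after scaling. Of tested genes at 1 to 5 CPM in WT, the range of Mapk7, 79.5% were missing from KO library 2. Map3k3 and Map2k5 lie at 20 to 50 CPM. A link of any of these values to that of Klf2 was not tested.

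Shares within the family do not depend on how libraries are scaled. Klf6 gave 43.2 to 58.6% of all Klf counts in the WT libraries, and 35.8, 42.3, 13, 61.6 and 83.9% in KO libraries 1 to 5. Klf3 gave 3.5 to 8.45% in WT and 63.4, 25, 18.2, 21.9 and 0.375% in KO. On this measure 4 of 5 KO libraries were above every WT library. A share also rises when other members are missing, so it is no separate test of a rise in Klf3. In KO library 1 the share rested on 156 Klf3 counts. Per library size alone these were 32.8 CPM, below the lowest WT library at 36.2 CPM. The other KO libraries above WT by share were also above every WT library per library size alone. Klf13 gave 10.7 to 18.7% in WT and led the family in KO library 3, at 38.1%. The leading gene was Klf6 in every WT library, Klf3 in KO library 1, Klf13 in KO library 3 and Klf6 in the other 3 KO libraries. KO libraries 1 and 5 rest on 246 and 800 Klf counts, against 12991 to 29450 in the other KO libraries.

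**Figure D4:**
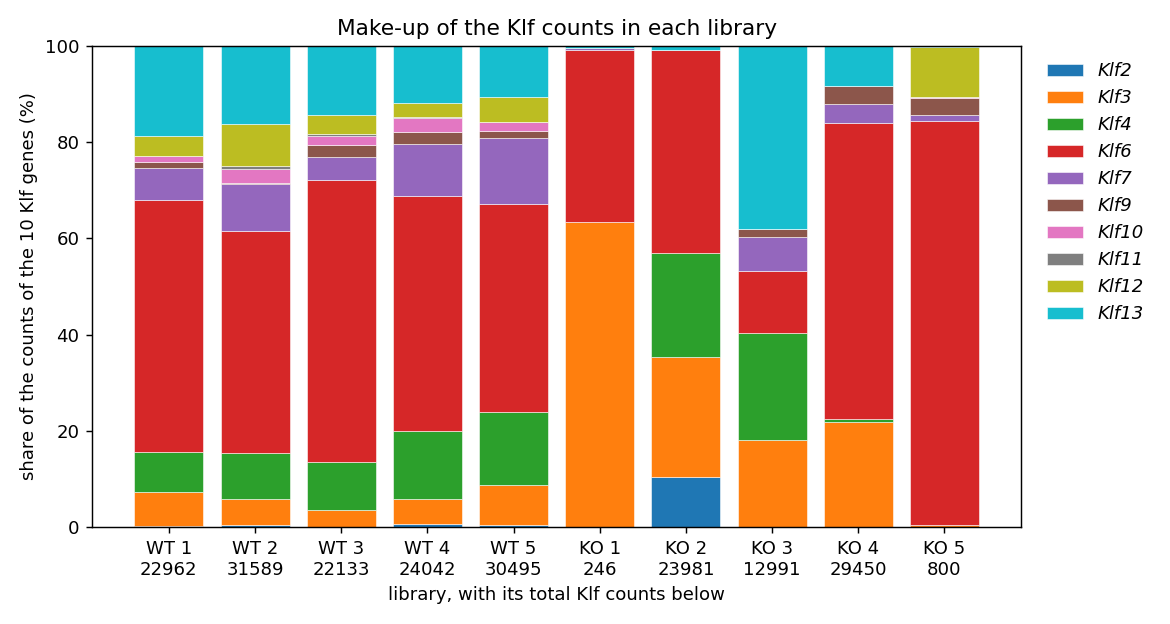
Share of the counts of the 10 Klf genes that each gene took in each library, in percent, with the library's total Klf counts below its name. Klf6 takes 43.2 to 58.6% of the 5 WT bars, while the KO bars differ among themselves, with Klf3 leading in KO library 1 and Klf13 in KO library 3.

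Genes whose pattern over the 10 libraries was closest were sought for Klf6, Klf3 and Klf4, the 3 members with the highest mean TMM-scaled CPM over all 10 libraries, KO included (Klf13 was above Klf3 in WT), as the smallest mean absolute difference of centred log2(CPM + 1) among tested genes of at least 0.5 times the member's mean. For Klf6 these were Eef2, Rpl6 and Atl3, with differences of 0.51, 0.53 and 0.58 and a median of 1.60 over 425 candidates. For Klf4 they were Tnrc6c, Dgat1 and Aplp2 (0.46, 0.51 and 0.54; median 2.39 over 1659 candidates). Klf3 had no neighbour as close: Slc7a8, Csnk1a1 and Hspa5 differed by 1.03, 1.07 and 1.08 (median 2.67 over 1116 candidates).

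The rest of the KLF and SP family gave 2 falls and 0 rises among 5 tested genes of 16, with a median log2 fold change of −1.53, where 27.1% of all tested genes were lower. Klf8, the third CtBP-binding member, had 973 counts in WT and 0 in KO (edgeR adjusted p = 0.00165). Sp4 had 6754 and 9 counts and passed narrowly (edgeR adjusted p = 0.0492), a call kept in 5 of 19 alternatives. It was lost without any 1 WT library or without KO library 2, 3, 4 or 5 (adjusted p up to 0.0903) and, among other settings, with RLE factors (adjusted p = 0.249). Klf5, Sp1 and Sp3 did not pass, at −1.53, 2.26 and −0.70 (edgeR adjusted p = 0.491, 0.258 and 0.766). Sp1 passed with DESeq2 (adjusted p = 0.0332). Klf1, the globin gene activator of red cell precursors, was listed at 0 in every library, KO library 1 included. Klf14, Klf15, Sp5 and Sp8 were listed at 0 as well. So were the corepressor Ctbp2 and the ubiquitin ligases Fbxw7 and Stub1 of the lists below. Only 19014 of the 54838 genes had any count. Whether a gene at 0 in every library was unexpressed was not tested.

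Corepressors and coactivators that KLF proteins are known to bind gave 6 falls and 0 rises among 14 tested of 15, with a median log2 fold change of −1.57. Lower calls made up 27.1% of all tested genes. By WT level they made up 34.8% at 1 to 5 CPM, the range of Kat5. At 5 to 20 CPM, the range of Hdac2, Hdac3 and Fhl3, they made up 41.3%. At 20 to 50 CPM, the range of Hdac1 and Ctbp1, they made up 19.9%. The 8 that did not pass stood at 21.2 CPM (Sin3b) to 462 CPM (Ncor1) in WT. The list was not matched for WT level. The falls were of the histone deacetylases Hdac1 (9501 WT and 6 KO counts), Hdac2 (2867 and 3) and Hdac3 (1518 and 1), the KLF3 partner Fhl3 (2985 and 3), the acetyltransferase Kat5 (444 and 1) and the corepressor Ctbp1 (4641 and 24). EdgeR adjusted p-values were 0.00547, 0.00239, 0.00173, 0.00235, 0.00204 and 0.0352. The call of Ctbp1 was lost without any 1 WT library and without KO libraries 1 and 5 (adjusted p up to 0.0705), and that of Kat5 with limma voom (adjusted p = 0.0611). Sin3a, Sin3b, Ncor1, Ep300 and Crebbp were among the 8 that did not pass.

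Of 16 tested genes known to act upstream of KLF genes, 2 fell, 0 rose and 14 did not pass, with a median log2 fold change of 0.01. This and the next 2 counts stand beside the 27.1% of all tested genes that were lower. Mapk7, the kinase ERK5 that induces Klf2 and Klf4, had 900 and 0 counts (edgeR adjusted p = 0.00163), and Tgfbr1, a receptor of the TGF-beta pathway that induces Klf10 and Klf11, had 4287 and 5 (edgeR adjusted p = 0.00714). Of 6 tested ubiquitin ligases 2 fell, Smurf1 (2750 and 3 counts, edgeR adjusted p = 0.00592) and Fbxo32 (1055 and 2, adjusted p = 0.00163), and 0 rose, with a median of −0.35. Of 13 tested genes known as KLF targets 4 fell and 0 rose, with a median of −1.76. They were Cdkn1b, a cell cycle inhibitor (3152 and 1 counts, edgeR adjusted p = 0.00163), Smad7, the TGF-beta brake (7204 and 3, adjusted p = 0.0101), Klf8, and Ccr7, a lymph node homing receptor (1121 and 5, adjusted p = 0.045). Ccr7 passed in 7 of 17 alternatives, and its call was lost without WT library 2 or 5 or KO library 1, 2, 3 or 4 (adjusted p up to 0.127) and, among other settings, with DESeq2 (adjusted p = 0.164). All genes of these lists that fell had at most 3 counts in at least 4 of the 5 KO libraries.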

How the data were processed

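The authors deposited raw read counts per gene in 1 column per library; per the labels' protocols the kit was a stranded one for total RNA. STAR 2.6.0c, SAMtools 1.8, HTSeq 0.9.1 and build GRCm38 are named in the submitters' processing notes, while the sources used here give no annotation release, strand setting or filter. Groups follow the genotype label. Of 54838 gene identifiers, 54809 matched GENCODE M21 (GRCm38), which gave positions and exon lengths.

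Genes were kept by filterByExpr (minimum of 10 counts), scaled by TMM and tested with edgeR 4.0.16 (R 4.3.3, quasi-likelihood, KO against WT), with Benjamini-Hochberg adjustment over the 7490 genes kept and a threshold of 0.05. The standard error is the size of the log2 fold change divided by the square root of F. Levels are TMM-scaled CPM. Missing means at most 3 counts. Alternatives were RLE factors, library size alone, other filters, DESeq2 1.42.0, voom (limma 3.58.1), no globin or mitochondrial genes, thinning to 3620002 counts and leaving out libraries; those for list genes were added after seeing the data. The test was run first on data simulated with a moderate spread and without loss of genes from single KO libraries. That run checks the code and not how the test behaves on these KO libraries. All 10 members and the lists were chosen with earlier results of these data known; named by rule were all members, every tested gene of the KLF and SP list, up to 6 genes per list that passed, and genes shown beside a member (S1pr1, Foxo1, endothelial markers). Sin3a, Sin3b, Ncor1, Ep300, Crebbp, Map3k3, Map2k5, Smad3, Lyz2, Ctbp2, Fbxw7 and Stub1 were named outside the rule, after their values were seen. Counts without molecular identifiers are not independent molecules.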

Additional observations from a re-analysis of the deposited data

Results flagged for a closer look

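In 3 of the 20 groups of 5 libraries formed by the Klf genes, 1 library stood apart from the other 4 by more than Dixon's 95% limit of 0.71 of the range. Chance passes it in about 1 in 20 groups of normally distributed values, which KO groups with many counts of 0 are not. The share over all tested genes was not computed, so the 3 cannot be called more or fewer than in other genes. The KO group of Klf11 was at 0 throughout and could not stand apart. Klf2 in KO library 2 stood at 375 TMM-scaled CPM with the other KO libraries at 0. Klf9 in KO library 4 stood at 155 CPM, above 28.8 CPM in the next library. Klf12 in KO library 5 stood at 36.4 CPM, with the other KO libraries at most at 0.411 CPM. No WT library stood apart in this way for any of the 10 genes.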

How the results depend on the processing

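Klf10 passed as lower in all 19 alternatives, and the 19 fitted values of Klf3, Klf6 and Klf12 kept their sign. Over the 170 values of tested Klf genes, 148 kept direction and call, 8 came to pass (of Klf3, Klf6 and Klf12, given above) and 14 changed sign. Sign changes with limma voom were Klf2 to −0.62, Klf4 to −3.23, Klf9 to −1.10 and Klf13 to −2.47. Klf2 stood at −8.65 without KO library 2 (up to 5.49 with another library left out), and DESeq2 gave it no p. Klf7 became positive with RLE factors (0.23), a minimum of 30 counts (0.0089), DESeq2 (0.20), without KO libraries 1 and 5 (0.64), and without WT library 2 or 5 or KO library 1, 2 or 5, its values with 1 library left out running from −0.84 to 0.29.

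Klf genes lower numbered 2 with no filter (Klf10 and Klf11), with voom and without KO libraries 1 and 5 (Klf10 and Klf12), and 1 to 2 with 1 library left out; Klf genes higher numbered 1 with DESeq2 (Klf3), 2 without KO libraries 1 and 5 (Klf3 and Klf6), and 0 to 1 with 1 library left out. Klf genes missing from KO libraries were 27 of 50 pairs, 16 at exactly 0 counts. Over all genes, 2027 were lower and 112 higher. Lower calls numbered 1282 after thinning, 3291 without KO libraries 1 and 5, and 1734 to 3350 with 1 library left out. Higher calls numbered 193 with RLE factors, 49 with library size alone, 2345 with no filter, 61 at a minimum of 30 counts, 1512 with DESeq2, 71 with voom, 53 after thinning, 348 without KO libraries 1 and 5, and 82 to 333 with 1 library left out. Lower calls were 94.8% of all calls, 56.3% with no filter and 63.3% with DESeq2. Over all tested genes the median change of −0.47 was 0.093 with RLE factors, −1.77 with library size alone and −3.58 with voom. The causes were not tested. No paired analysis was possible because the labels give the groups no shared replicate numbers. Standard errors of the tested Klf genes ran from 1.12 (Klf6) to 2.59 (Klf2) in log2 fold change. The parts of low depth and of spread between KO libraries in them were not tested. Missing the threshold therefore does not show that a Klf gene was unaffected.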
